A study of Homo sapiens with 8 samples.

Results

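The genes described here are 8 genes of the NRF2 antioxidant and glutathione system, namely NFE2L2, HMOX1, NQO1, GCLC, GCLM, TXNRD1, SRXN1 and GSR. They were listed by name as genes of the pathway, with earlier results of these data known, and the rule sets no threshold on a measured value. All 8 were measured, out of 17687 genes with a symbol on the array. Each was represented by 1 probe set, which is the set of short probes that reads 1 transcript cluster, and each was above background on all 8 arrays.

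RNA came from BE2C, an established human neuroblastoma cell line with MYCN amplification, and was hybridized to Clariom S human arrays. In the DMSO group, 2 arrays carried RNA from cells given the vehicle alone, 0.1% DMSO, for 24 h. In the GSK-J4 group, 2 arrays carried RNA from cells given GSK-J4, an ester that cells convert to an inhibitor of the histone demethylases KDM6A and KDM6B, for the same 24 h. The labels give its dose as 2.5 mM, while the study's text names 2.5 μM for BE2C cells, so the labelled unit is uncertain. The control siRNA group and the KDM6B siRNA group, with 2 arrays each, carried RNA 48 h after transfection with 30 nM of the siRNA. All 4 groups are thus the same cell line without any engineered allele, and the labels do not say which of the KDM6B siRNA sequences each array received. The replicates are called biological, but nothing ties them to separate cultures further than that word, so the p-values measure only the spread between these arrays. The labels put the drug and the siRNA at different times, so drug and siRNA effects are compared at 24 h and 48 h respectively.

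NRF2, the product of NFE2L2, is a transcription factor that the KEAP1 and CUL3 ubiquitin ligase holds at a low level in unstressed cells. When electrophiles or oxidants modify KEAP1, NRF2 accumulates, pairs with a small MAF protein and binds antioxidant response elements near its target genes. The repressor BACH1 competes for many of the same elements, above all at HMOX1. Control of NRF2 acts mainly on the protein, which these arrays did not measure. The targets chosen here cover glutathione synthesis (GCLC and GCLM), glutathione reduction (GSR), thioredoxin and peroxiredoxin repair (TXNRD1 and SRXN1), heme breakdown (HMOX1) and quinone reduction (NQO1).

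The core of the antioxidant response element, TGACNNNGC, where N is any base, was searched on both strands of the 300 bases around each annotated start in RefSeq (GRCh38.p14), 250 bases before it and 50 after. Windows were given for 6 of the 8 genes, and 2 of these 6 held a match, GCLM and TXNRD1. Over all genes with a window, 16.1% held one, 4384 of 27305. HMOX1 and GSR were not analysed here for their promoters. No match within these windows was found for NFE2L2, NQO1, GCLC or SRXN1, which says only that these letters are not in this window. The matches are shown because this is the element by which the system is defined, each on the strand of its gene, 5′ to 3′, with the motif in capitals, whether it lies on that strand or the opposite one.
GCLM, chr1:93909446-93909474, minus strand, motif beginning 34 bases before the start: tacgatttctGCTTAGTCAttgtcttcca
TXNRD1, upstream start, chr12:104215670-104215698, plus strand, motif beginning 99 bases before the start: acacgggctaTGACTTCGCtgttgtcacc
TXNRD1, upstream start, chr12:104215761-104215789, plus strand, motif beginning 8 bases before the start: gcgtccttcgGCTCCGTCAgttcccacag
TXNRD1, downstream start, chr12:104286920-104286948, plus strand, motif beginning 102 bases before the start: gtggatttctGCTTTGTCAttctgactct
A match is a description of the sequence. Binding was not measured.

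Values below are log2 expression, so that a difference of 1 is a doubling. Between 12982 and 13633 genes, 73.4% to 77.1%, lay above background on an array, where background is the 95th percentile of the array's negative control probe sets. The number of arrays limits the precision. The KDM6B siRNA arrays stood apart from each other, with 906 genes more than 1 log2 unit apart (5.12%), against 8, 6 and 3 genes in the DMSO, GSK-J4 and control siRNA pairs. KDM6B itself read 8.27 and 8.35 on the control siRNA arrays and 7.22 and 5.76 on the KDM6B siRNA arrays, a difference of -1.82 (SE 0.39, adjusted p = 0.0878). Both were below their controls. Of 10 markers of the adrenergic neuroblastoma state 8 were measured, and all 8 were above background on every array, among them HAND2, GATA3, TH and DBH. Their mean level was 10.1 to 10.3 on the DMSO, GSK-J4 and control siRNA arrays and 8.92 and 9.68 on the KDM6B siRNA arrays, and the part of this in the values below was not tested. Of 8 measured mesenchymal or fibroblast markers 7 were above background on every array, with a mean level of 7.06 to 7.13 with DMSO, 6.90 to 6.94 with GSK-J4, 7.24 to 7.32 with control siRNA and 7.49 to 7.55 with KDM6B siRNA, and their part was not tested either. In bulk RNA, fewer cells of a type and less RNA per cell cannot be told apart. Of 3 measured Schwann markers SOX10 and S100B were above background on every array and ERBB3 on none, of 4 immune markers CD14 was above on every array and CD3E and LYZ on none, and of 4 epithelial markers KRT5 and KRT14 were above on every array and CDH1 on none.

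**Figure D1:**
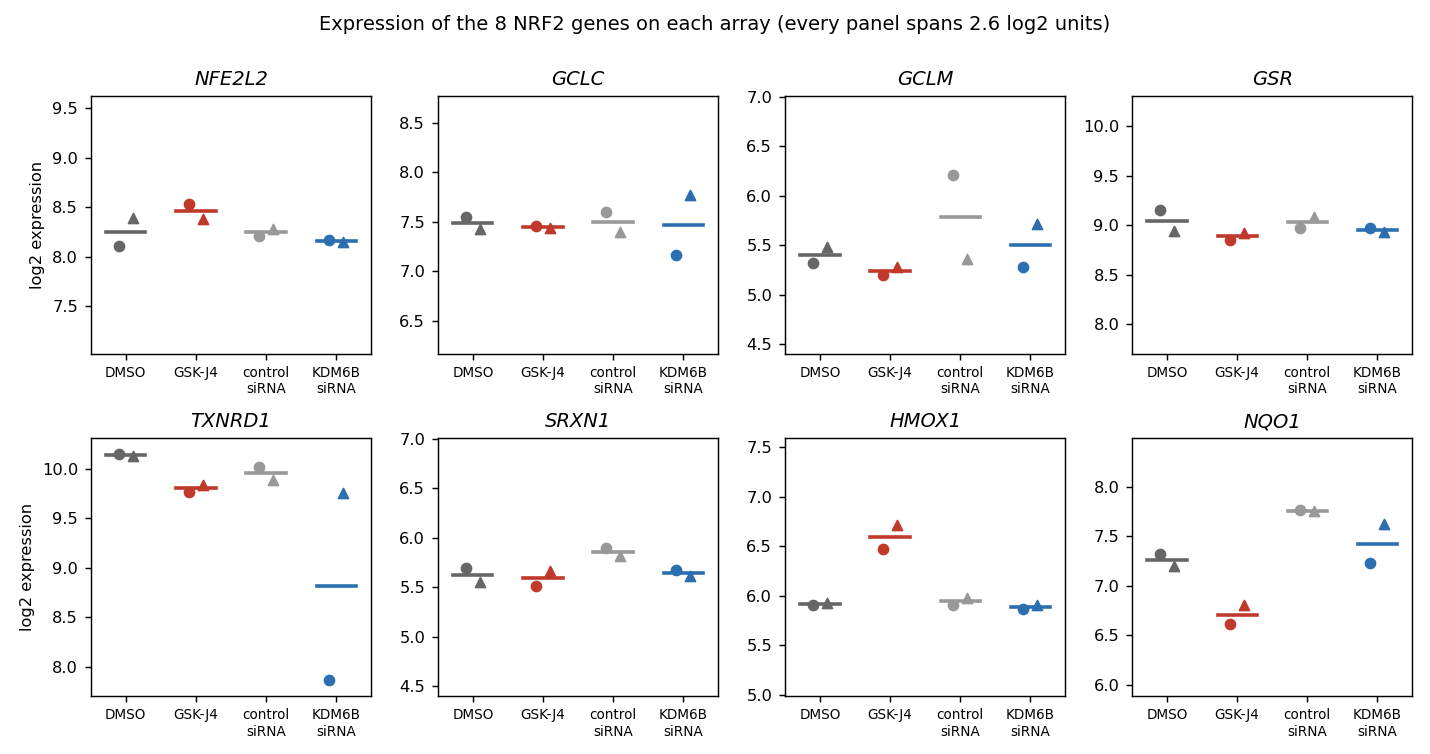
Log2 expression (y axis) of each of the 8 genes on the 8 arrays, by group (x axis). Circles are replicate 1, triangles are replicate 2 and bars are the means of 2 arrays. Every panel spans the same height in log2 units. HMOX1 stands above the other groups on both GSK-J4 arrays, at 6.47 and 6.72, and TXNRD1 is far below the rest on KDM6B siRNA replicate 1 alone, at 7.86.

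GSK-J4 changed 1 of the 8 genes. HMOX1 rose, and the other 7 did not pass the test. Their differences ran from -0.55 for NQO1 to 0.21 for NFE2L2, and the median over the 8 was -0.10, against -0.02 over all genes tested. Over all genes, 2.29% were called higher and 1.41% lower in this comparison, by limma with Benjamini-Hochberg adjustment. At an unadjusted p under 0.05, 2 of the 8 genes passed, HMOX1 and NQO1, as did 3008 of 17687 genes. The adjusted test had 4 residual degrees of freedom, and with 2 arrays a group a p that misses the threshold does not show that levels were alike.

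NFE2L2, which encodes NRF2 itself, read 8.12 and 8.39 with DMSO and 8.53 and 8.39 with GSK-J4. These groups met at 8.39 and overlapped. The difference was 0.21 (SE 0.14, adjusted p = 0.505), with a 95% interval from -0.10 to 0.52. With control siRNA the gene read 8.22 and 8.28, and with KDM6B siRNA 8.18 and 8.16. The KDM6B siRNA arrays were the lower without overlap, and the difference of -0.08 did not pass (adjusted p = 0.835). From lowest to highest the groups were KDM6B siRNA, control siRNA, DMSO and GSK-J4, and only the lowest neighbours did not overlap.

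GCLC encodes the catalytic subunit of glutamate-cysteine ligase, the rate-limiting enzyme of glutathione synthesis. Its levels were 7.55 and 7.42 with DMSO and 7.46 and 7.43 with GSK-J4, a difference of -0.04 (SE 0.20, adjusted p = 0.95). With control siRNA they were 7.60 and 7.40, and with KDM6B siRNA 7.16 and 7.77. Every pair of neighbouring groups overlapped, and the 4 group means lay within 0.05 log2 units of each other. The KDM6B siRNA arrays fell on opposite sides of their control mean, at -0.33 and 0.28 from it, so that the mean difference of -0.03 (adjusted p = 0.969) describes neither array.

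GCLM encodes the modifier subunit of the same ligase, and its promoter match is given above. It read 5.32 and 5.49 with DMSO, 5.20 and 5.29 with GSK-J4, 6.21 and 5.36 with control siRNA, and 5.28 and 5.72 with KDM6B siRNA. Both GSK-J4 arrays were below both DMSO arrays, and the difference did not pass (-0.16, SE 0.27, adjusted p = 0.828). The control siRNA arrays were 0.85 log2 units apart, the widest spacing of any of the 8 genes within DMSO, GSK-J4 or control siRNA. The difference between KDM6B siRNA and control siRNA was -0.29 (adjusted p = 0.686), with an interval from -0.90 to 0.32, and those groups overlapped.

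GSR encodes glutathione reductase, which returns oxidized glutathione to its reduced form with NADPH. It had the narrowest range of the 8 genes over the arrays and read 9.15 and 8.94 with DMSO, 8.86 and 8.92 with GSK-J4, 8.97 and 9.09 with control siRNA, and 8.97 and 8.93 with KDM6B siRNA. Both treated pairs were below their controls without overlap. The differences were small, at -0.16 for GSK-J4 (SE 0.13, adjusted p = 0.606) and -0.08 for KDM6B siRNA (adjusted p = 0.829).

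TXNRD1 encodes cytosolic thioredoxin reductase, which keeps thioredoxin reduced. It read 10.15 and 10.12 with DMSO and 9.76 and 9.84 with GSK-J4, and the arrays of these groups did not overlap. The difference of -0.34 did not pass (SE 0.48, adjusted p = 0.802), and its interval ran from -1.44 to 0.77. All 8 arrays share 1 estimate of the spread in this fit. Without the KDM6B siRNA group, a setting added after the data were seen, the same difference had an SE of 0.10 and an adjusted p of 0.0655.

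After transfection TXNRD1 read 10.02 and 9.88 with control siRNA and 7.86 and 9.76 with KDM6B siRNA. Both KDM6B siRNA arrays were below both controls, replicate 1 by -2.09 and replicate 2 by -0.20 against the control mean. The mean difference was -1.14 (SE 0.48, adjusted p = 0.329). The distance of 1.89 between the KDM6B siRNA replicates was matched or exceeded by 92 of 17687 genes (0.52%), and TXNRD1 was the 1 gene of the 8 with a distance over 1. Without KDM6B siRNA replicate 2 the difference was -2.09, and without replicate 1 it was -0.20. Either fit leaves 1 KDM6B siRNA array and so holds no spread within that group, and no call is drawn from it. Replicate 1, with the low TXNRD1, is the array with the smaller loss of KDM6B, -1.09 against -2.56 in replicate 2. The labels do not name the siRNA sequence of either array, and what sets them apart was not tested.

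SRXN1 encodes sulfiredoxin, which repairs overoxidized peroxiredoxins. Its levels were 5.70 and 5.56 with DMSO and 5.51 and 5.67 with GSK-J4, and these overlapped (difference -0.04, SE 0.12, adjusted p = 0.927). With control siRNA they were 5.90 and 5.82 and with KDM6B siRNA 5.68 and 5.61. Here the KDM6B siRNA arrays were the lower without overlap, and the difference of -0.21 did not pass (adjusted p = 0.486).

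HMOX1 encodes heme oxygenase, which breaks heme into biliverdin, iron and carbon monoxide. It read 5.91 and 5.93 with DMSO and 6.47 and 6.72 with GSK-J4. Control siRNA gave 5.91 and 5.98, and KDM6B siRNA gave 5.86 and 5.91. The GSK-J4 arrays were above all 6 other arrays, which lay between 5.86 and 5.98. HMOX1 rose by 0.68 with GSK-J4 (SE 0.13, adjusted p = 0.0292), a 1.60-fold increase with a 95% interval from 0.38 to 0.97 on the log2 scale. The call did not hold when any DMSO, GSK-J4 or control siRNA array was left out, with adjusted p between 0.0816 and 0.237, while the difference stayed between 0.55 and 0.80. KDM6B siRNA gave a difference of -0.06 (SE 0.13, adjusted p = 0.888).

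NQO1 encodes a quinone reductase that uses NADH or NADPH and is widely used as a readout of NRF2. It read 7.32 and 7.20 with DMSO and 6.61 and 6.81 with GSK-J4. The GSK-J4 arrays were the lowest of the series, below all 6 others. The difference was -0.55 (SE 0.16), a level 1.46-fold lower, with an unadjusted 95% interval from -0.91 to -0.18 and an adjusted p of 0.116 that did not pass. It passed without the KDM6B siRNA group (adjusted p = 0.0134), and leaving out either array of that group gives this same fit here. It also passed with the 4 arrays of the comparison alone (0.0331) and with array weights (0.0163).

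With control siRNA NQO1 read 7.77 and 7.75, and with KDM6B siRNA 7.23 and 7.63. Both KDM6B siRNA arrays were below their controls, and the difference of -0.33 (SE 0.16, adjusted p = 0.385) did not pass. The control siRNA arrays were above both DMSO arrays by 0.50 on average (adjusted p = 1). From lowest to highest the groups were GSK-J4, DMSO, KDM6B siRNA and control siRNA. The middle pair overlapped, and the other neighbours did not.

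**Figure D2:**
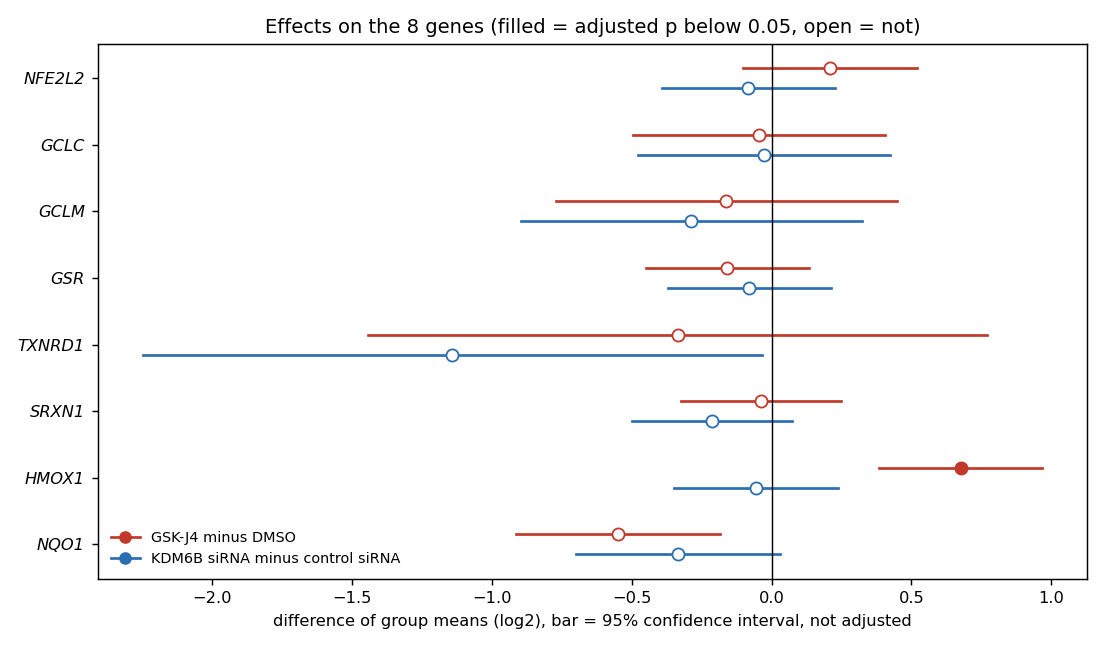
Difference between group means on the log2 scale (x axis) for each of the 8 genes, for GSK-J4 minus DMSO in red and KDM6B siRNA minus control siRNA in blue. Bars are 95% confidence intervals from limma without adjustment, filled points passed an adjusted p of 0.05 and open points did not. HMOX1 with GSK-J4, at 0.68, is the single filled point, and TXNRD1 has the widest intervals.

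KDM6B siRNA changed none of the 8 genes by limma at an adjusted p of 0.05. Over all genes 0.113% were called higher and 0.492% lower. At an unadjusted p under 0.05, 1 of the 8 passed, TXNRD1, as did 2588 of 17687 genes. By the t-test that the study's methods name none of the 8 did. All 8 differences were below 0, from -1.14 for TXNRD1 to -0.03 for GCLC, with a median of -0.15 against 0.01 over all genes. In 5 of the 8 genes, NFE2L2, NQO1, TXNRD1, SRXN1 and GSR, both KDM6B siRNA arrays were below both control arrays, and in 0 they were above. Over all genes the share without overlap was 19.7% lower and 22.2% higher. With GSK-J4, 4 of the 8 were lower without overlap (NQO1, GCLM, TXNRD1 and GSR) and 1 was higher (HMOX1), where all genes gave 28.6% lower and 25.5% higher.

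The difference between the GSK-J4 effect and the KDM6B siRNA effect asks whether the inhibitor and the loss of KDM6B mRNA moved a gene unequally. These effects share no array. KDM6B mRNA itself was 0.98 higher with GSK-J4 than with DMSO, and lower with KDM6B siRNA as given above. By limma without the KDM6B siRNA group, a setting added after the data were seen, that rise had an adjusted p of 0.00279. No call is drawn from that setting here. For the difference of effects, none of the 8 genes passed by limma. At an unadjusted p under 0.05, 1 of the 8 did, HMOX1, as did 2143 of 17687 genes. Over all genes 0.746% were called with the GSK-J4 effect the higher and 0.175% with it the lower. For HMOX1 the difference of effects was 0.73 (SE 0.18, adjusted p = 0.141, interval from 0.32 to 1.15). It was 0.71 without KDM6B siRNA replicate 1 and 0.75 without replicate 2. For TXNRD1 the difference of effects was 0.81 (adjusted p = 0.72), but -0.14 without KDM6B siRNA replicate 1 and 1.75 without replicate 2. Fits with 1 KDM6B siRNA array hold no spread within that group. The other 6 genes had differences of effects between -0.21 (NQO1) and 0.29 (NFE2L2).

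The control groups were compared to see where the 8 genes stood without inhibitor or KDM6B siRNA. They differ in transfection, vehicle and time together, which cannot be told apart. Control siRNA against DMSO called none of the 8 genes by limma, where 0.00565% of all genes were called in each direction. At an unadjusted p under 0.05, 1 of the 8 passed, NQO1, as did 759 of 17687 genes. NQO1 (0.50) and SRXN1 (0.23) were higher without overlap and TXNRD1 (-0.19) was lower, where 20.1% of all genes were higher and 19.8% lower without overlap.

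**Figure D3:**
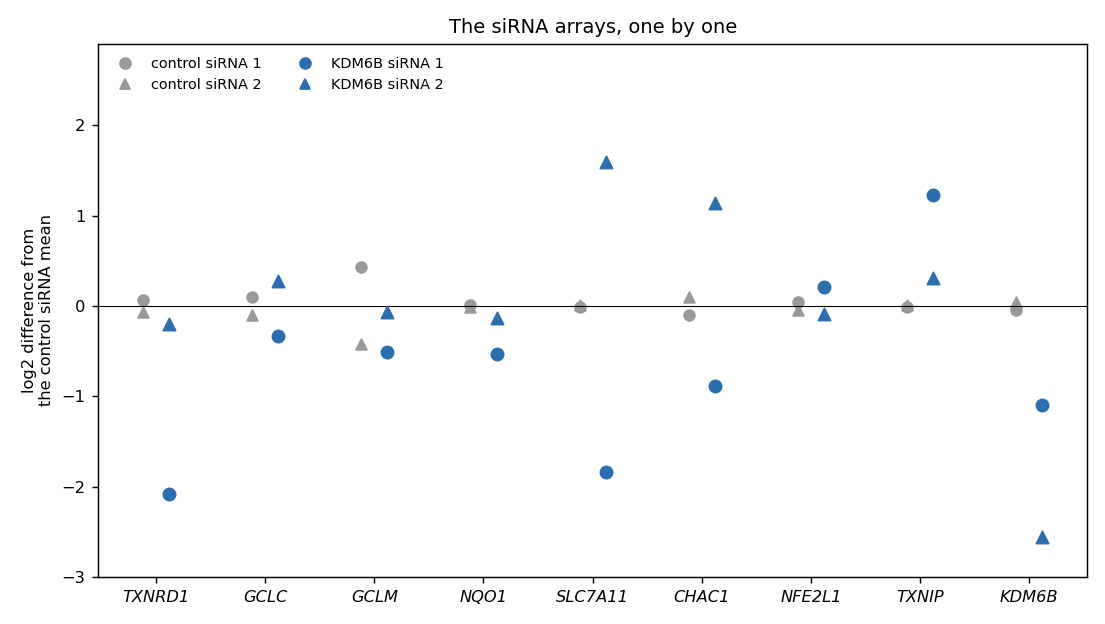
Log2 difference of each siRNA array from the mean of the control siRNA arrays (y axis) for 4 of the 8 genes, 4 genes of the wider redox lists and KDM6B (x axis). Grey marks are control siRNA and blue marks KDM6B siRNA, circles replicate 1 and triangles replicate 2. For TXNRD1 the replicates are at -2.09 and -0.20, and for SLC7A11 they are on opposite sides, at -1.84 and 1.59.

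The regulators of NRF2 were looked at as a list of 12, of which 11 were measured. With GSK-J4 1 rose and none fell, and KDM6B siRNA called none. Beside this count and those of the lists below stand the shares over all genes. These were 2.29% higher and 1.41% lower with GSK-J4, and 0.113% higher and 0.492% lower with KDM6B siRNA. The gene that rose was NFE2L1, which encodes NRF1, a relative of NRF2 best known for restoring proteasome genes. It read 9.66 and 9.87 with DMSO and 10.75 and 10.72 with GSK-J4, without overlap, a difference of 0.97 (SE 0.14, adjusted p = 0.0134). With KDM6B siRNA its difference was 0.06 (adjusted p = 0.895).

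BACH1, the repressor at the HMOX1 elements, read 7.75 and 7.87 with DMSO and 8.29 and 8.31 with GSK-J4. That difference of 0.49 did not pass (adjusted p = 0.0834). The ligase that degrades NRF2 gave -0.18 for KEAP1, its substrate adaptor, 0.04 for CUL3, its scaffold, and -0.46 for RBX1, its RING subunit (adjusted p = 0.112). SQSTM1, a selective autophagy receptor that binds KEAP1, gave 0.16 and BTRC, an adaptor of a second NRF2 ligase, gave 0.40. Of the small MAF partners, MAFF gave -0.18 and MAFG gave 0.06. BACH2 and NFE2L3 were not above background on both arrays of any group. None of these passed. KDM6B siRNA gave mean differences from -0.20 for RBX1 to 0.32 for BTRC over the list. For several genes the replicates lay on opposite sides of the control mean. Among them were BTRC, at -0.10 and 0.74, and SQSTM1, at -0.48 and 0.16. Without the KDM6B siRNA group, BACH1 (adjusted p = 0.0218) and NFE2L1 passed as higher and RBX1 (adjusted p = 0.0236) as lower with GSK-J4.

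Other NRF2 targets were a list of 30 genes, with 25 measured. With GSK-J4 1 rose and 2 fell, the median was -0.01, and KDM6B siRNA called none. SLC48A1, a heme transporter, rose by 1.37 (adjusted p = 0.0209). PRDX1, a peroxiredoxin that removes hydrogen peroxide, fell by 0.79 (adjusted p = 0.0393), from 10.79 and 10.60 to 9.87 and 9.93. CBR1, a carbonyl reductase, fell by 0.63 (adjusted p = 0.0341). The called genes of this list stood on both sides of 0, where 2.29% of all genes were called higher and 1.41% lower. HMOX1 and NQO1 also differed in sign, though NQO1 did not pass. What moved these genes was not tested.

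SLC7A11, the cystine transporter that supplies cysteine for glutathione, is singled out here after its values were seen. It read 6.63 and 6.70 with DMSO and 9.58 and 9.66 with GSK-J4, far apart and without overlap. The difference was 2.95 (SE 0.85, adjusted p = 0.117) and did not pass. With control siRNA it read 7.13 and 7.15, and with KDM6B siRNA 5.31 and 8.73, so that the KDM6B siRNA replicates lay 3.43 apart, on either side of the controls. Without the KDM6B siRNA group the GSK-J4 difference of 2.95 had an SE of 0.099 and an adjusted p of 1.73e-06.

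Glutathione synthesis and turnover was a list of 18 genes, with 17 measured beside GCLC and GCLM. With GSK-J4 3 rose and 1 fell, the median was 0.14, and KDM6B siRNA called none. CHAC1, which degrades glutathione, read 7.73 and 7.55 with DMSO and 10.67 on both GSK-J4 arrays, and rose by 3.03 (adjusted p = 0.0225). Its KDM6B siRNA arrays were apart, at 6.85 and 8.88. The related enzyme CHAC2 fell by 1.36 (adjusted p = 0.00858) and had a KDM6B siRNA difference of -0.94 (adjusted p = 0.0646). SLC1A4, a neutral amino acid transporter, was not above background with DMSO. With GSK-J4 it was at least 3.96-fold higher (measured means 4.52 and 6.74, adjusted p = 0.00112), where DMSO values were raised to the array's background limit. SLC1A5, a glutamine transporter, rose by 0.76 (adjusted p = 0.0207). The other 13 measured genes of the list did not pass, among them the synthetase GSS (-0.12, adjusted p = 0.698) and GGT1 (-0.06, adjusted p = 0.868), which cleaves glutathione outside the cell, nor did GCLC and GCLM.

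Enzymes that use glutathione were a list of 29 genes, with 27 measured. With GSK-J4 none rose and 2 fell, the microsomal transferase MGST2 by 0.83 (adjusted p = 0.0239) and the transferase GSTA4, which handles lipid peroxidation products, by 0.77 (adjusted p = 0.024). The median of the list was -0.20, against -0.02 over all genes, with 17 of 27 lower and 2 higher without overlap, where all genes gave 28.6% lower and 25.5% higher. KDM6B siRNA called none, with a median of -0.08. The glutathione transferases of the GSTM family are close in sequence and how far their probe sets tell them apart was not examined.

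The thioredoxin and peroxiredoxin list held 19 genes, with 18 measured beside TXNRD1 and SRXN1. With GSK-J4 2 rose and 1 fell, and the median was -0.26. TXNIP, which binds and inhibits thioredoxin, read 7.82 and 7.88 with DMSO and 10.00 and 10.26 with GSK-J4, and rose by 2.27 (adjusted p = 0.00484). Its KDM6B siRNA difference was 0.77 (adjusted p = 0.232). SESN2, a stress-induced sestrin that restrains growth signalling, rose by 1.40 (adjusted p = 0.00498), and the gene that fell was PRDX1. KDM6B siRNA called none of this list. Superoxide and peroxide enzymes, 5 measured of 6, gave no call in either comparison by limma, with 1 and 0 at an unadjusted p under 0.05. With GSK-J4 the lowest difference of that list was -0.39, for PARK7, while SOD1 gave -0.20 and CAT -0.14. Without the KDM6B siRNA group PARK7 passed as lower by limma (adjusted p = 0.0348).

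NADPH, the reductant of GSR, TXNRD1 and NQO1, is supplied by enzymes of which 18 of 19 listed were measured. With GSK-J4 3 rose and none fell, ALDH1L2, a mitochondrial folate dehydrogenase (1.31, adjusted p = 0.00186), IDH1, cytosolic isocitrate dehydrogenase (1.19, adjusted p = 0.00987), and NADK2, the mitochondrial NAD kinase (0.85, adjusted p = 0.0217). The median was 0.03. Of the heme and iron list, 17 of 20 were measured and 2 rose with GSK-J4, SLC48A1 and TFRC, the transferrin receptor (1.13, adjusted p = 0.00212). HMOX2, the constitutive relative of HMOX1, gave -0.05 (adjusted p = 0.89). KDM6B siRNA called none of either list.

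Across the 8 lists, with 127 measured genes, KDM6B siRNA called 0 genes by limma. Of all genes 0.113% were called higher and 0.492% lower, so 0 calls does not set these lists apart. The t-test of the methods called 0 genes of the whole array after adjustment. At an unadjusted p under 0.05 by limma, the lists held 0 NRF2 regulators, 4 other NRF2 targets, 3 genes of glutathione synthesis and turnover, 4 users of glutathione, 4 thioredoxin and peroxiredoxin genes, 0 superoxide and peroxide enzymes, 3 NADPH enzymes and 4 heme and iron genes. Over all genes 2588 of 17687 passed at that level.

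**Figure D4:**
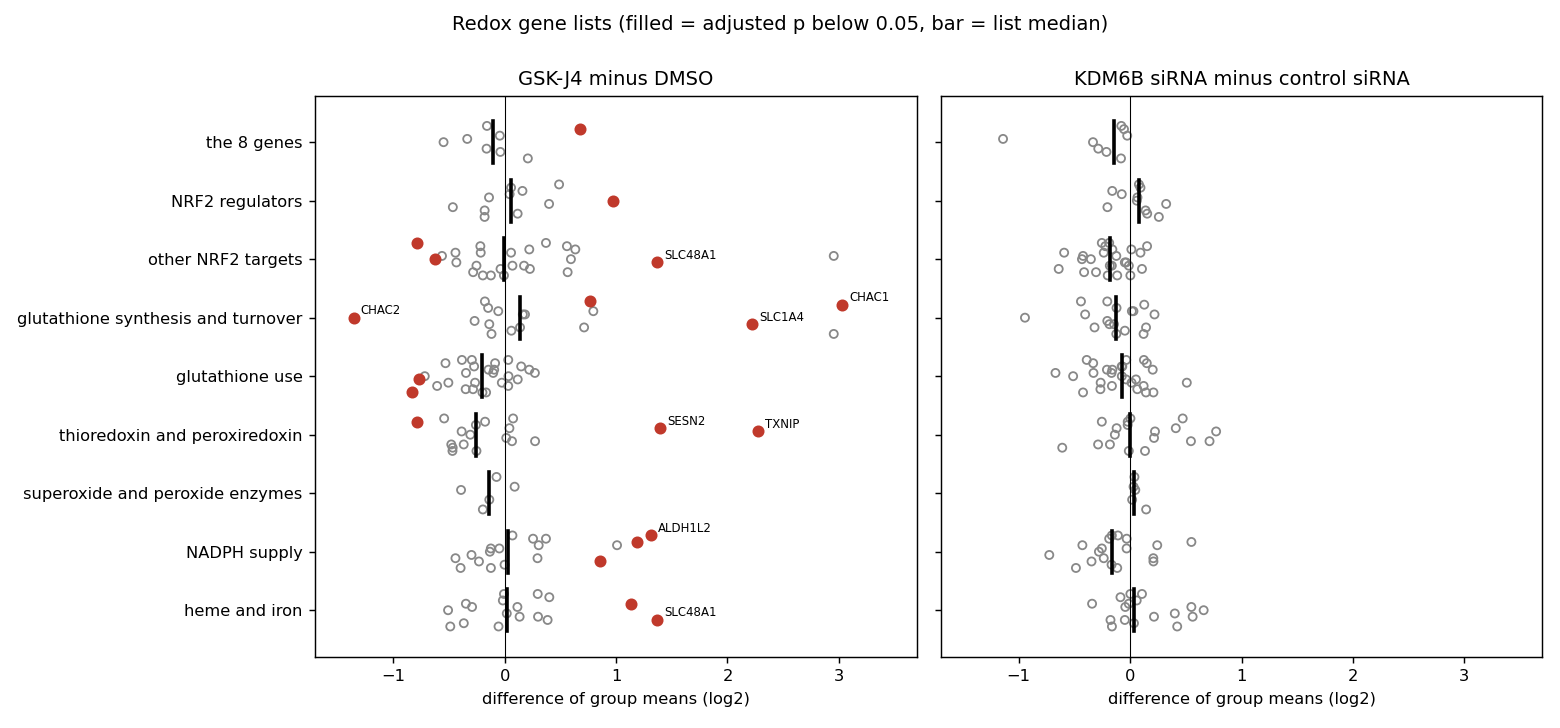
Difference between group means on the log2 scale (x axis) for the 8 genes and 8 lists of redox genes (y axis), for GSK-J4 minus DMSO on the left and KDM6B siRNA minus control siRNA on the right. Each point is a gene, placed up or down only to separate points, filled points passed an adjusted p of 0.05 and black bars are list medians. Filled points stand on both sides of 0 on the left, from -1.36 for CHAC2 to 3.03 for CHAC1, and none is filled on the right. A gene in more than 1 list is drawn in each.

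Many of the GSK-J4 calls in these lists did not hold in every setting. The settings counted are not independent. For this comparison, leaving out either KDM6B siRNA array gives the same fit as leaving out that whole group. SLC1A4, ALDH1L2 and TFRC were called in 17 of 18 settings, all but the t-test of the methods (adjusted p = 0.168, 0.143 and 0.0924). SESN2 was called in 15, and lost without DMSO replicate 1 or GSK-J4 replicate 2, and CHAC2 in 14, lost without DMSO replicate 2 or either GSK-J4 array. NFE2L1, TXNIP and IDH1 were called in 13 of 18 and lost without any 1 DMSO or GSK-J4 array. SLC48A1, CHAC1 and NADK2 (11 of 18) and PRDX1, CBR1, SLC1A5, MGST2 and GSTA4 (10 of 18) were lost without any 1 DMSO, GSK-J4 or control siRNA array, as HMOX1 was. The highest adjusted p over the settings was 0.267, for PRDX1, and the directions did not turn.

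More of these genes passed with GSK-J4 when the KDM6B siRNA group was left out, a setting in which 14.3% of all genes passed, 1320 higher and 1217 lower. Of the 8 genes, HMOX1 (adjusted p = 0.00624) then passed as higher and NQO1 as lower. Among other NRF2 targets 6 of 25 passed as higher, AKR1C1, AKR1C2, AKR1C3, EPHX1, SLC48A1 and SLC7A11, and 3 as lower, CBR1, PRDX1 and TALDO1. In glutathione synthesis and turnover 6 of 17 passed as higher and 1 as lower, and among users of glutathione 0 passed as higher and 6 as lower. AKR1C1, AKR1C2 and AKR1C3 are aldo-keto reductases with close sequences, and how far their probe sets tell them apart was not examined.

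The genes whose pattern over the 8 arrays was most like that of each of the 8 were taken by Pearson correlation from 709 genes with group means spanning at least 1 log2 unit. These values describe 8 arrays that share groups and are given without a test. For HMOX1 they were NXPH4 (r = 0.983), SESN2 (0.981) and ULBP1 (0.981). NQO1 was most like NPY (0.954), SLC27A6 (0.945) and GTF3C6 (0.943), and NFE2L2 was most like FZD5 (0.958), PFKFB3 (0.87) and NFIL3 (0.865). For SRXN1 they were ADCYAP1 (0.944), ARL9 (0.893) and PLPP4 (0.872).

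TXNRD1 was most like CORO1C (0.995), EXOSC7 (0.985) and MMD (0.977), and these values rested in part on 1 array, since without KDM6B siRNA replicate 1 they were 0.922, 0.829 and 0.621. GCLC, GCLM and GSR had no candidate above 0.80. Their nearest were NCKAP1 (0.795) for GCLC, NPY (0.746) for GCLM and KDM8 (0.794) for GSR, and the group means of GCLC and GSR spanned only 0.05 and 0.16 log2 units.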

How the data were processed

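Log2 expression was measured on 8 Clariom S arrays, 2 for each of the 4 groups. The authors deposited a table with, for every probe set, a log2 value on each array. The submitters' processing notes name GCOS. How background was corrected and how probes were normalized and summarized is not given in the sources used here. The range of the values showed the log2 scale, and array medians lay between 6.16 and 6.20, so a change of total RNA per cell would not show.

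Of 24351 probe sets, 17709 had 1 platform symbol, and 3739 transcript probe sets had none or more than 1 and were left out. Where a gene had several probe sets, as 20 did, the one with the highest mean was used. The test was limma's (version 3.58.1, R 4.3.3, two-sided, lmFit and eBayes) over all 17687 genes with 1 coefficient per group, 4 residual and 4.18 prior degrees of freedom, Benjamini-Hochberg adjustment and a threshold of 0.05. The t-test that the methods name was an alternative, beside quantile normalization, median centring, fits on the 4 arrays of a comparison, array weights, an intensity trend with a robust prior, a filter on dim genes, the lowest-mean probe set, a replicate block and each array left out.

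The 8 genes and the 8 lists (153 entries, 140 genes, 127 measured) were chosen with earlier results of these data known. Genes named were the 8, all measured NRF2 regulators, up to 4 called genes per other list and comparison by size of change, and the 3 nearest in pattern, with exceptions stated.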

Additional observations from a re-analysis of the deposited data

Results flagged for a closer look

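By limma with adjustment over all genes, the difference between the GSK-J4 effect and the KDM6B siRNA effect passed for 6 of the 127 measured genes of the wider redox lists. It passed for none of the 8 genes. Of all genes 0.746% were called with the GSK-J4 effect the higher and 0.175% with it the lower, so 0 of 8 does not set the 8 genes apart. Values are the GSK-J4 effect minus the KDM6B siRNA effect on the log2 scale. The GSK-J4 effect was the higher for SESN2 by 1.52 (adjusted p = 0.0291), for ALDH1L2 by 1.42 (adjusted p = 0.0134), for SLC1A5 by 1.2 (adjusted p = 0.0291) and for TFRC by 1.14 (adjusted p = 0.0195). SLC1A4 also passed, at 2.41 (adjusted p = 0.009), but its DMSO, control siRNA and KDM6B siRNA arrays were not above background, so that value is not a measured size and only its GSK-J4 level was measured. UROS, an enzyme of heme synthesis, was the single one of the 6 with the GSK-J4 effect the lower, at -1.17 (adjusted p = 0.0269). On all 8 arrays neither UROS effect passed alone, with -0.51 for GSK-J4 (adjusted p = 0.0628) and 0.66 for KDM6B siRNA (adjusted p = 0.0602). Without the KDM6B siRNA group, a setting added after the data were seen, the GSK-J4 effect on UROS passed by limma (adjusted p = 0.0139). In that setting 14.3% of all genes passed. The 6 calls of the difference of effects did not hold in every setting. SLC1A5, ALDH1L2, UROS and TFRC were called in 8 of 15 settings, SESN2 in 9 and SLC1A4 in 10. SLC1A5, ALDH1L2, UROS, TFRC and SESN2 were lost without any 1 DMSO, GSK-J4 or control siRNA array, and SLC1A4 without any of these but DMSO replicate 2, with adjusted p up to 0.188. SESN2 and HMOX1 had patterns over the 8 arrays that correlated at 0.981, and the difference of effects for HMOX1 was 0.73 without passing (adjusted p = 0.141). The drug was measured at 24 h and the siRNA at 48 h, which cannot be told apart from the difference between the treatments.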

How the results depend on the processing

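With GSK-J4, 654 genes and 1 of the 8 were called. Quantile normalization, median centring, the filter on dim genes, the lowest-mean probe set and the intensity trend kept the count of genes within 1.5 times of this and kept 1 of the 8. The 4 arrays alone gave 1908 genes and 2 of the 8, array weights 2116 and 2, the methods' t-test 0 and 0 (3324 genes at an unadjusted p under 0.05, HMOX1, NQO1 and TXNRD1 among them), and the 6 arrays without the KDM6B siRNA group, added after the data were seen, 2537 and 2. Leaving out either KDM6B siRNA array repeats that last fit here. The lowest-mean probe set cannot change the values of the 8, which have 1 probe set each. Counts of settings below include these repeats. Leaving out 1 array gave 55 to 2537 genes and 0 to 2 of the 8. HMOX1 was called in 10 of 18 settings (adjusted p 0.00502 to 0.237) and NQO1 in 5 of 18 (0.0134 to 0.469). For KDM6B siRNA, 107 genes became 0 with the 4 arrays alone, 27 with array weights and 0 with the t-test (1257 unadjusted), and ranged from 0 to 3518 with 1 array left out, with 0 to 1 of the 8. The difference of effects called 163 genes, 17 to 2486 with 1 array left out, with 0 to 2 of the 8, and it was not run with 4 or 6 arrays or the t-test. Control siRNA against DMSO called 2 genes, 27 with the 4 arrays alone, 37 with array weights, 0 with the t-test and 64 with 6 arrays, and 0 to 64 with 1 array left out. No called direction turned. A sign differed with no call in either fit in 3 of 144, 4 of 136, 8 of 120 and 11 of 144 values of the 8 genes in the 4 comparisons, in that order.

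The replicate numbers do not pair these arrays on the labels' word. Differences between replicates 1 and 2 correlated across genes with r = 0.0879 for DMSO and GSK-J4 and -0.0357 for the siRNA groups. With a replicate block, calls were 225 genes and 0 of the 8 for GSK-J4 (HMOX1 adjusted p = 0.0842), 4 for KDM6B siRNA, 52 for the difference of effects and 1 for control siRNA against DMSO.

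With 2 arrays a group, leaving 1 out rests on the assumption that the lone array varies like the other groups. For KDM6B siRNA this does not hold. Its replicates differed with an SD of 0.472 over genes, against 0.187 to 0.226 in the other groups. Array values carry no count, so depth cannot be set beside them. Of 140 listed genes 127 were measured, and MAFK, FTH1 and SOD2 are among those not analysed here.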
